A study of Mus musculus with 2 samples.

Results

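Growth arrest and stress response genes were followed in single-nucleus RNA sequencing of the mouse brain after subarachnoid haemorrhage (SAH), bleeding into the fluid space around the brain. The members were the 10 genes Cdkn1a, Gadd45a, Gadd45b, Gadd45g, Ddit3, Ddit4, Mdm2, Trp53inp1, Atf3 and Atf4, taken by symbol from 32285 genes in the feature tables. They were selected with the SAH against Normal difference in these same nuclei in view, so every SAH against Normal value below is a description and not a test. The SAH library held brain tissue pooled from 3 male mice aged 6 to 8 weeks, 12 h after an intracranial vessel was punctured from inside the artery, and the Normal library held the same region pooled from 3 male mice of the same age. The region was the hemisphere on the injured side, cut from the medial prefrontal cortex (2.34 mm in front of bregma) to the central lateral thalamus (2.18 mm behind it). The control is called Normal here as in the sample labels, whereas the methods of the study describe sham-operated mice. The study's methods name the strain as C57BL/6J, and no transgene was described for either pool. Those methods state an age of 8 to 10 weeks, whereas the age given here is that of the sample labels. With 1 library per condition there was no replicate, so no p-value is given, and each interval covers counting error only, at the 95% level. Mouse to mouse spread and library effects cannot be told apart from the effect of SAH.

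The members belong to connected programmes. The transcription factor p53 is stabilised by DNA damage and other stress and switches on Cdkn1a, which encodes the cyclin-dependent kinase inhibitor p21, together with Mdm2, the ubiquitin ligase that returns p53 to a low level, and Trp53inp1, a cofactor of p53. The GADD45 proteins are small partners of PCNA and of kinases upstream of p38 and JNK. ATF4 is the main effector of the integrated stress response, in which phosphorylation of eIF2alpha lowers general translation, and ATF3 and CHOP, the product of Ddit3, act downstream of it. Ddit4 encodes REDD1, which restrains the growth kinase mTORC1 and also responds to hypoxia and glucocorticoids. ATF4 is regulated largely at translation, which transcript counts do not measure.

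The sequence upstream of the members was read from the RefSeq promoter table (GRCm38.p6), which held a window for all members except Trp53inp1, and a second window for Cdkn1a. The 4 windows shown are those of the members with the largest SAH over Normal ratios in oligodendrocyte-like nuclei (Cdkn1a, Atf3, Ddit4) and of the other member with a matched stress-response motif (Gadd45g). Each is the 250 bases before the annotated start, in which capitals mark a matched motif. The motifs searched, on both strands, were the full p53 site (2 decamers in tandem without a spacer, with at most 1 mismatch outside the 4-base cores), the C/EBP-ATF composite element TTGCATCA, the cyclic AMP response element TGACGTCA, and the plain strings TGACGCAA and TATAAA.
Cdkn1a (chr17:29090729-29090978, plus strand): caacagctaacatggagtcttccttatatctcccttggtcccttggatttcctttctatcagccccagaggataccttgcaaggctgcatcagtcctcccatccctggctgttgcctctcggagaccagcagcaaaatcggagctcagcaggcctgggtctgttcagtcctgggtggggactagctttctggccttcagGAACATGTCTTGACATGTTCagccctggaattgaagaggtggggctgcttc
Atf3 (chr1:191183334-191183583, minus strand): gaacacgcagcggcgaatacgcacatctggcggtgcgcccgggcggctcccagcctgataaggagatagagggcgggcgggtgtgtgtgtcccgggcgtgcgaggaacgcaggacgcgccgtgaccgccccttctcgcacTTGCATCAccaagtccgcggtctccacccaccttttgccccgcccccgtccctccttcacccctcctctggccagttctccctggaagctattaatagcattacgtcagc
Gadd45g (chr13:51846425-51846674, plus strand): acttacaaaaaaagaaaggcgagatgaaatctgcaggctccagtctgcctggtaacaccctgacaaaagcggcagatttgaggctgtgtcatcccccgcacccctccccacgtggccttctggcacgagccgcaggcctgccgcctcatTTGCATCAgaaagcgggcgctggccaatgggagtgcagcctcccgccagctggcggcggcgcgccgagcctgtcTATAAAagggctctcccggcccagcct
Ddit4 (chr10:59951771-59952020, minus strand): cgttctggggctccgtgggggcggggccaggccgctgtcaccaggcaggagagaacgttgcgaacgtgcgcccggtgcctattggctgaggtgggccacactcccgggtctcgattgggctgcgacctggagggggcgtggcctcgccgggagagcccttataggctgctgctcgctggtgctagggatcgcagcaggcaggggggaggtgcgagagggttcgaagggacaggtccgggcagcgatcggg
The first Cdkn1a window held a p53 site 51 to 32 bases before the start, a match found in 15 of 32851 windows (0.0457%). The second Cdkn1a window (chr17:29093519-29093768), before a start further along the gene, held no searched motif. The Atf3 window precedes a RefSeq transcript start that lies inside the gene as GENCODE annotates it (chr1:191170296-191218039), not its outermost start. The element TTGCATCA stood 110 to 103 bases before that start of Atf3 and 101 to 94 bases before that of Gadd45g, and was in 0.791% of all windows. TATAAA was matched in Gadd45g and Gadd45b, against 12.4% of all windows. No searched motif was matched in the Ddit4 window. No binding was measured, so these matches are descriptions of the letters only.

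After filtering, 10955 Normal and 15536 SAH nuclei remained, with a median of 6868 and 7840 unique molecular identifiers (UMIs, each counted as 1 captured molecule). Nuclei were assigned to a class by the summed share of marker UMIs. Oligodendrocyte-like nuclei numbered 1733 in Normal and 3463 in SAH, microglia-like nuclei 980 and 1233, excitatory neuron-like nuclei 4165 and 5745, and inhibitory neuron-like nuclei 2221 and 2367. A further 1660 and 2457 nuclei met no class. Astrocyte-like nuclei numbered only 19 and 17. The gate's own markers were lower in SAH, at a median of 277 (Normal) against 163 (SAH) UMIs per 10000 in the oligodendrocyte class. In the microglia class the medians were 248 against 153. Within 2-fold of the cut lay 64 Normal and 354 SAH nuclei for oligodendrocytes, 35 and 219 for microglia, 2115 and 3284 for excitatory neurons, and 1403 and 2457 for inhibitory neurons. The other classes' markers had a median of 0 in both glial classes. Transcripts of 9 abundant neuronal genes, counted in glial nuclei as a check for RNA from other cells, summed to 3470 CPM (UMIs of a gene or list per 1000000 UMIs of the class) in Normal and 3739 CPM in SAH oligodendrocyte-like nuclei, a log2 ratio of 0.11. The 9 blood cell genes summed to 27.6 and 13.8 CPM there, 814 and 767 CPM in microglia-like, 9.08 and 5.96 CPM in excitatory neuron-like and 8.28 and 6.56 CPM in inhibitory neuron-like nuclei. The sum in microglia-like nuclei was mostly the gene Ptprc, with 1119 of 1172 UMIs in Normal and 1745 of 1780 in SAH. Single genes of that list went against its sum, since the monocyte receptor gene Ccr2 had 1 UMI in Normal and 65 in SAH excitatory neuron-like nuclei, and the leukocyte gene Ptprc 21 and 92 in inhibitory neuron-like nuclei. The oligodendrocyte gene Anln had 133 and 454 UMIs in excitatory neuron-like nuclei. When all nuclei were clustered without the member genes, the glia of the libraries fell into different clusters. Among the oligodendrocyte clusters, 1 held 1622 Normal and 12 SAH nuclei, another 17 and 2984, another 1 and 400, and the last 97 and 179. Of the microglia clusters, 1 held 971 Normal and 48 SAH nuclei and the other 24 and 1227. Every glial SAH over Normal ratio below therefore compares nuclei that mostly do not share a cluster, and a change of state and a library effect cannot be told apart. The part of these shifts in the results was not tested. The libraries shared 78 cell barcodes, and removing those nuclei left every member's ratio within its interval.

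Cdkn1a showed the largest SAH over Normal ratio of the members with at least 50 UMIs in oligodendrocyte-like nuclei. The gene lies at chr17:29090976-29100727 on the plus strand of GRCm38. Of its UMIs, 10 were in Normal and 594 in SAH, or 2.71 CPM (1.30 to 4.98) against 71.5 CPM (65.9 to 77.5). The ratio was 26.4-fold (14.3 to 55.4), a log2 ratio of 4.72. In microglia-like nuclei 0 UMIs were found in Normal and 16 in SAH (6.89 CPM), which is at least 3.31-fold higher when 3 UMIs stand for the zero, while the exact interval, which also covers the error of the SAH count, starts at a log2 ratio of 1.26. In the neuron classes the intervals of the ratio contained 1, with 1.67 and 1.51 CPM in excitatory neuron-like nuclei and 1.03 and 0.992 CPM in inhibitory neuron-like nuclei. When each nucleus took the class of its highest marker share with no cut, these log2 ratios turned from -0.15 to 0.41 and from -0.06 to 1.44. The nuclei that met no class had 9 Cdkn1a UMIs in Normal and 102 in SAH, a ratio of 6.62 (3.35 to 14.9). The log2 ratio in oligodendrocyte-like nuclei exceeded that in excitatory neuron-like nuclei by 4.87 (3.89 to 5.85). Of all Cdkn1a UMIs in kept nuclei, oligodendrocyte-like nuclei held 7.19% in Normal and 67.9% in SAH. The class itself was 15.8% of kept nuclei in Normal and 22.3% in SAH, so its size also enters these shares.

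Within the excitatory class, thalamic-like nuclei (306 in Normal, 555 in SAH) were the exception. They had 2 Cdkn1a UMIs in Normal and 20 in SAH, a ratio of 5.46 (1.33 to 48.2), whereas the other excitatory nuclei had 92 and 103 UMIs, a ratio of 0.792 (0.592 to 1.06). The intervals of these ratios did not overlap, although the thalamic-like value rests on 2 UMIs in Normal.

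**Figure D1:**
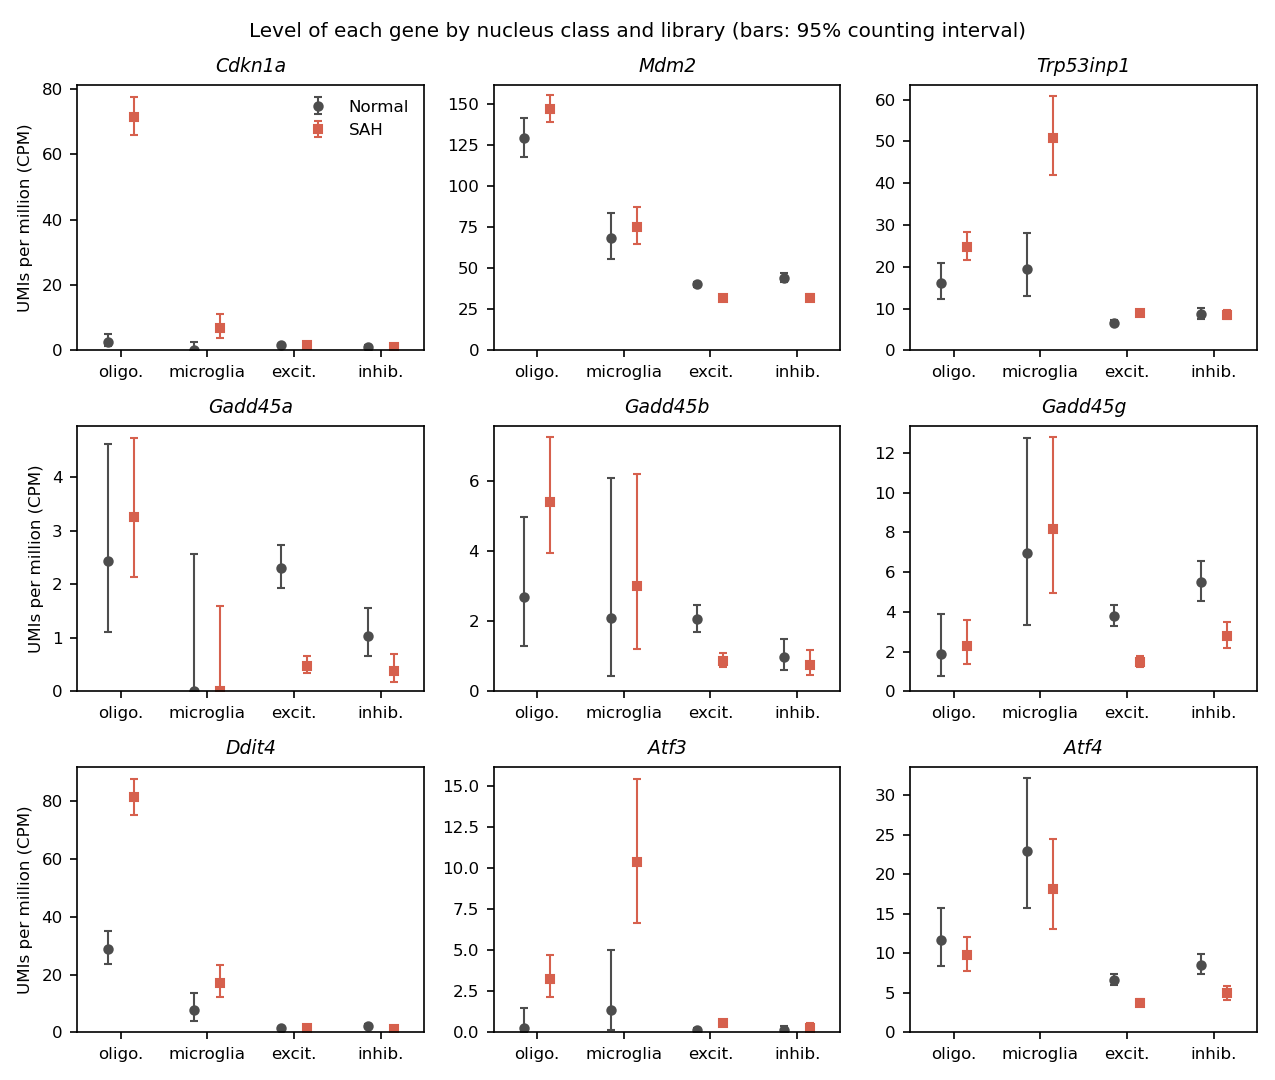
Level of 9 members in CPM (vertical axis, linear from 0 and scaled per gene) in 4 nucleus classes, with grey circles for Normal, red squares for SAH and bars for the 95% Poisson interval of the count. Cdkn1a stands at 71.5 CPM in SAH oligodendrocyte-like nuclei against 2.71 CPM in Normal, while the 3 Gadd45 genes lie lower in SAH in excitatory neuron-like nuclei.

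Cdkn1a was detected in a minority of oligodendrocyte-like nuclei, each holding 1 or few UMIs. At such counts the share describes detection only, since a nucleus without a UMI may still express the gene. A UMI was found in 10 of 1733 Normal nuclei (0.577%, 0.277 to 1.06) and in 517 of 3463 SAH nuclei (14.9%, 13.8 to 16.2). In SAH 451 of these held 1 UMI, 57 held 2, and 9 held 3 or more, with a maximum of 4. Because the medians differed (1879 and 2194 UMIs), each nucleus was also thinned to 1000 UMIs, which left out 157 Normal and 146 SAH nuclei that were shallower. The shares were then 0.127% and 7.54%. Free RNA can put a UMI into a nucleus that does not express the gene. At the same depth the inhibitory neuron-like nuclei held 0.0904% in Normal and 0.169% in SAH, the lower shares of the neuron classes, and the microglia-like nuclei 0 of 736 in Normal, which at 3 counts allows a share of up to 0.408%, and 0.853% in SAH. The SAH oligodendrocyte share lay above all of these, and the Normal share (0.0154 to 0.458) was not separated from them.

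Mdm2, the p53 antagonist (chr10:117688875-117710758, minus strand), was slightly higher in SAH in oligodendrocyte-like nuclei and lower in both neuron classes. Oligodendrocyte-like nuclei had 478 UMIs in Normal and 1224 in SAH, or 129 CPM (118 to 142) against 147 CPM (139 to 156), a ratio of 1.14 (1.02 to 1.27). Excitatory neuron-like nuclei stood at 40.3 and 31.8 CPM (ratio 0.788, 0.744 to 0.834) and inhibitory neuron-like nuclei at 44.5 and 32.1 CPM (ratio 0.722, 0.658 to 0.793). All genes in those neuron classes had a median log2 ratio of -0.11 and -0.17, against -0.34 and -0.47 for Mdm2. Centred on the 500 genes nearest in length, the neuron log2 ratios were -0.17 and -0.20. With every nucleus thinned to 1000 UMIs the log2 ratio was 0.06 in oligodendrocyte-like, -0.54 in excitatory and -0.16 in inhibitory neuron-like nuclei. The difference between the oligodendrocyte-like and excitatory log2 ratios of Mdm2 was 0.53 (0.36 to 0.70). Oligodendrocyte precursor-like nuclei (29 in Normal, 52 in SAH) had 17 Mdm2 UMIs in each library. The SAH total was larger, so these were 115 and 45.9 CPM, a ratio of 0.400 (0.192 to 0.834). Cdkn1a had 0 and 3 UMIs in the precursor-like nuclei. In microglia-like nuclei Mdm2 stood at 68.8 and 75.4 CPM, a ratio whose interval (0.852 to 1.42) contained 1.

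Trp53inp1, the p53 cofactor (chr4:11156431-11174379, plus strand), was higher in SAH in both glial classes. Microglia-like nuclei had 28 UMIs in Normal and 118 in SAH (19.4 and 50.8 CPM), a 2.61-fold ratio (1.72 to 4.10). Oligodendrocyte-like nuclei had 60 and 206 UMIs (16.2 and 24.8 CPM), a 1.53-fold ratio (1.14 to 2.07). In thalamic-like excitatory nuclei 21 and 90 UMIs gave a 2.34-fold ratio (1.44 to 3.97), while inhibitory neuron-like nuclei showed 8.73 and 8.54 CPM. In all excitatory neuron-like nuclei 373 and 738 UMIs gave a log2 ratio of 0.45 (0.27 to 0.63). The log2 ratio in oligodendrocyte-like nuclei was 0.61 against 1.39 in microglia-like nuclei, a difference of -0.78 whose interval ended at -0.05.

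The Gadd45 genes were lower in SAH in excitatory neurons. They lie at chr6:67035096-67037457 (Gadd45a, minus strand), chr10:80930073-80932204 (Gadd45b, plus strand) and chr13:51846678-51848468 (Gadd45g, plus strand). Gadd45a had 130 UMIs in Normal and 39 in SAH excitatory neuron-like nuclei, or 2.31 CPM against 0.477 CPM, a log2 ratio of -2.27 (-2.83 to -1.75). Gadd45b had 116 and 72 UMIs (2.06 and 0.881 CPM), a log2 ratio of -1.23 (-1.67 to -0.79). Gadd45g had 213 and 123 UMIs (3.78 and 1.51 CPM), a log2 ratio of -1.33 and a ratio of 0.398 (0.316 to 0.499). All 3 were lower in SAH under each of the 13 alternatives computed for them. Short genes as a whole were lower too, since genes under 5 kb had a median log2 ratio of -0.34 in this class, and the Gadd45 genes span 1791 to 2362 bases. Centred on the 500 genes nearest in length, the log2 ratios were -1.87, -0.83 and -0.96. With every nucleus thinned to 1000 UMIs Gadd45g stood at -2.86. In the thalamic-like nuclei Gadd45a had 4 and 7 UMIs, a ratio of 0.956 (0.243 to 4.45), and Gadd45g 19 and 15 (0.431, 0.204 to 0.896). The part in these values of the Ccr2 and Anln differences in this class was not tested.

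Inhibitory neuron-like nuclei showed the same signs with fewer counts. Gadd45g had 122 and 73 UMIs (5.49 and 2.78 CPM, log2 ratio -0.98, -1.42 to -0.55) and Gadd45a 23 and 10 UMIs (log2 ratio -1.44, -2.68 to -0.31). The Gadd45g value was -0.37 when centred on genes of similar length and -2.09 with thinned nuclei. Gadd45b had 22 and 20 UMIs, a log2 ratio of -0.38 with an interval from -1.33 to 0.57, and its sign turned under centring on genes of similar length. In oligodendrocyte-like nuclei all 3 had a higher level in SAH, none with an interval clear of 1. Gadd45b had 10 and 45 UMIs there (2.71 and 5.42 CPM), a 2.00-fold ratio with an interval of 0.994 to 4.45. With every nucleus thinned to 1000 UMIs its log2 ratio there was 0.25, under the 2-fold mark. Gadd45a and Gadd45g had 9 and 7 UMIs in Normal and 27 and 19 in SAH there, log2 ratios of 0.42 and 0.27, too few UMIs to separate the libraries. Part of the Gadd45a locus overlaps the gene E230016M11Rik on the opposite strand.

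**Figure D2:**
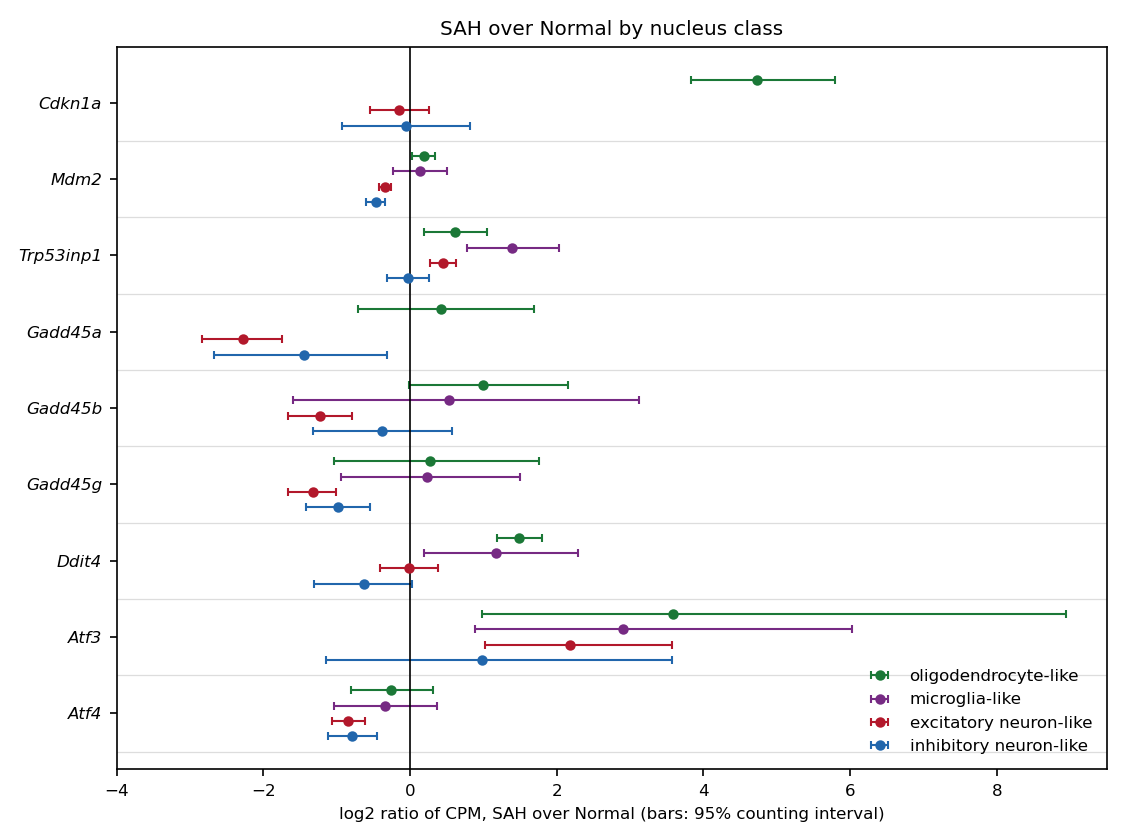
Log2 ratio of CPM, SAH over Normal (horizontal axis), for 9 members in 4 nucleus classes, where points are the values, bars the exact 95% counting intervals and colours the classes; a class is left out where 1 library had 0 UMIs. Cdkn1a and Ddit4 lie to the right in oligodendrocyte-like nuclei, and the Gadd45 genes to the left in both neuron classes.

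Ddit4, the mTORC1 restraint (chr10:59949669-59951834, minus strand), was higher in SAH in both glial classes. In oligodendrocyte-like nuclei 107 UMIs in Normal and 675 in SAH gave 29.0 CPM (23.7 to 35.0) and 81.3 CPM (75.2 to 87.6), a ratio of 2.80 (2.28 to 3.47). In microglia-like nuclei 11 and 40 UMIs gave 7.64 and 17.2 CPM, a ratio of 2.26 (1.14 to 4.87). Excitatory neuron-like nuclei stood at 1.67 and 1.65 CPM, and the interval of the excess of the oligodendrocyte log2 ratio over theirs was 1.02 to 1.98. Oligodendrocyte-like nuclei held 37.3% of its UMIs in Normal and 71.7% in SAH, and were 15.8% and 22.3% of kept nuclei. After thinning to 1000 UMIs, 2.60% of Normal and 8.20% of SAH oligodendrocyte-like nuclei held a Ddit4 UMI. The shares were 0.543% and 1.79% in microglia-like and 0.144% and 0.244% in excitatory neuron-like nuclei. In inhibitory neuron-like nuclei the shares of 0.271% and 0.0423% rest on 6 and 1 nuclei. At full depth that class had 46 and 35 Ddit4 UMIs, a ratio of 0.645 whose interval (0.403 to 1.02) contained 1.

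**Figure D3:**
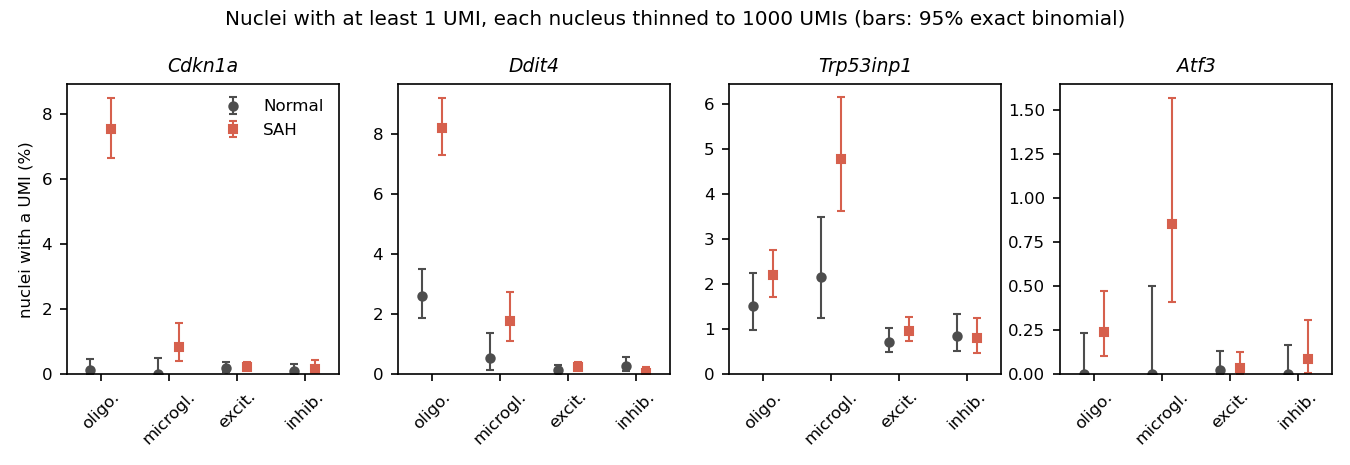
Percent of nuclei with at least 1 UMI of Cdkn1a, Ddit4, Trp53inp1 and Atf3 (vertical axis) after each nucleus was thinned to 1000 UMIs, in 4 classes, with grey circles for Normal, red squares for SAH and bars for the exact 95% binomial interval. In SAH oligodendrocyte-like nuclei 7.54% held Cdkn1a and 8.20% held Ddit4, and in SAH microglia-like nuclei 4.78% held Trp53inp1.

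Nuclei with and without Cdkn1a were compared for the other members. Cdkn1a counts per nucleus were low, so nuclei without a UMI may still express it and the split partly reflects sampling. Similar levels on both sides therefore cannot show that Cdkn1a and the other members vary apart. In SAH oligodendrocyte-like nuclei with a Cdkn1a UMI (517 nuclei, median 2410 UMIs) Ddit4 stood at 85.3 CPM, and in those without (2946 nuclei, median 2172 UMIs) at 80.5 CPM, a log2 ratio of 0.08 (-0.22 to 0.38). Mdm2 and Trp53inp1 likewise differed by less than their intervals between these nuclei, with log2 ratios of -0.12 and -0.08. Atf4 stood at 14.8 and 8.77 CPM, a log2 ratio of 0.76 (-0.05 to 1.51), Atf3 at 0.85 (-0.63 to 2.15) on 7 and 20 UMIs, and the Gadd45 genes between -0.05 and 0.37. At equal depth 11.6% (7.91 to 16.2) of thinned nuclei with Cdkn1a and 7.92% (6.99 to 8.94) of those without held Ddit4. Opalin, a marker used to split oligodendrocytes into subsets, was itself lower in SAH (421 and 145 CPM), so the subsets are not matched between the libraries and are given for SAH only. There Cdkn1a stood at 61.7 CPM (49.1 to 76.5) in nuclei with Opalin but no Il33 UMI, at 78.0 CPM (65.1 to 92.8) in those with Il33 but no Opalin, at 72.6 CPM (64.0 to 82.2) in those with Anln or Hapln2 alone, and at 80.9 CPM (64.7 to 99.9) in those with none of these.

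Atf3, the stress-induced transcription factor, (chr1:191170296-191218039, minus strand) had few UMIs in Normal, 14 over all 10955 kept nuclei, and 193 in SAH. Oligodendrocyte-like nuclei had 1 UMI in Normal and 27 in SAH (ratio 12.0, 1.98 to 491), and microglia-like nuclei 2 and 24 (ratio 7.44, 1.85 to 65.0). In excitatory neuron-like nuclei 7 and 46 UMIs gave a ratio of 4.53 (2.03 to 11.9), but 27 of the 46 came from 2 nuclei. Without nuclei holding 3 or more Atf3 UMIs, 4 and 19 UMIs remained there, a log2 ratio of 1.71. With every nucleus thinned to 1000 UMIs, 1 Normal and 2 SAH nuclei of this class held an Atf3 UMI. The log2 ratio of 0.54 from so few counts does not measure the size of the difference.

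Atf4, the factor upstream of Atf3 (chr15:80255184-80257541, plus strand), had a lower level in SAH in each of the 4 classes. Excitatory neuron-like nuclei had 376 UMIs in Normal and 305 in SAH (6.68 and 3.73 CPM, ratio 0.559, 0.479 to 0.652), and inhibitory neuron-like nuclei 190 and 130 (8.55 and 4.96 CPM, ratio 0.580, 0.460 to 0.729). The glial ratios were 0.837 in oligodendrocyte-like and 0.790 in microglia-like nuclei, with intervals that contained 1, and both turned above 1 when centred on genes of similar length. The same centring took the log2 ratio from -0.84 to -0.43 in excitatory and from -0.79 to -0.18 in inhibitory neuron-like nuclei, and thinning took the excitatory value to -1.55. Ddit3 is listed under a symbol that names 2 overlapping records. The record of the member row (chromosome 10, 127290829 to 127293753) lies inside a longer record on the same strand (127290774 to 127296288) and had 0 UMIs in all kept nuclei of both libraries. The longer record had 31 and 46 UMIs in oligodendrocyte-like nuclei (8.39 and 5.54 CPM, log2 ratio -0.60, -1.29 to 0.11) and 179 and 154 in excitatory neuron-like nuclei (3.18 and 1.88 CPM, log2 ratio -0.75, -1.07 to -0.44). Reads compatible with both records are discarded by the counting software, so the zero of the member row gives no level.

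Counted with a 2-fold rule over genes with at least 50 UMIs in a class, 3 of 6 such members were higher in oligodendrocyte-like nuclei (Cdkn1a, Gadd45b, Ddit4), against 7.96% of all 11326 genes. In microglia-like nuclei 2 of 4 were higher (Ddit4, Trp53inp1), against 6.65% of all genes, and in excitatory neuron-like nuclei 1 of 9 was higher (Atf3), against 8.24%. No member of the 5 tested in inhibitory neuron-like nuclei was higher, where 5.36% of all genes were. Lower by 2-fold were 0 members in oligodendrocyte-like (6.06% of genes), 0 in microglia-like (5.34%), 3 in excitatory neuron-like (4.58%, the Gadd45 genes) and 0 in inhibitory neuron-like nuclei (4.63%). Nothing is read from these shares, since the members were chosen on this contrast.

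**Figure D4:**
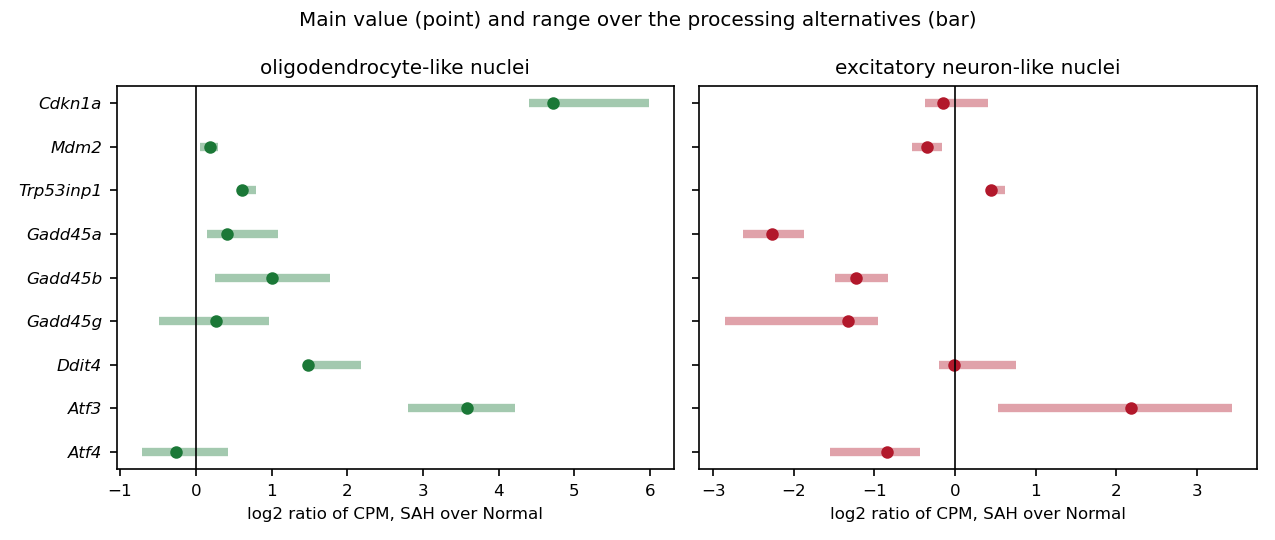
Log2 ratio of CPM, SAH over Normal (horizontal axis), in oligodendrocyte-like (left) and excitatory neuron-like nuclei (right), with points for the reported value and bars from the lowest to the highest value over the processing alternatives. In oligodendrocyte-like nuclei Cdkn1a ranges from 4.40 to 5.98, and in excitatory neuron-like nuclei Gadd45a ranges from -2.63 to -1.87.

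Related genes were read from 7 lists, which were written with earlier results of these data known. Of 25 p53 pathway genes measured in oligodendrocyte-like nuclei, 5 had an interval above 0 and 5 below. Of all genes in these nuclei, 24.2% lay above and 27.9% below. The median log2 ratio of the p53 pathway genes was 0.04 against -0.06 for all genes. Sesn1, a stress-induced inhibitor of mTORC1, had the highest ratio in the list (431 and 1498 UMIs, log2 ratio 0.63), followed by Rrm2b, a ribonucleotide reductase subunit (0.49). Bax, the pore-forming apoptosis effector, was lower (104 and 118 UMIs, log2 ratio -0.99), as was the antiproliferative gene Btg1 (-1.03). In the integrated stress response list 4 of 22 genes were above and 7 below, with a median of -0.17. Eif2ak2, which encodes the double-stranded RNA kinase PKR, had 5 and 59 UMIs (log2 ratio 2.39, 1.09 to 4.07), and Cebpb, encoding a C/EBP transcription factor, 7 and 52 (1.72, 0.58 to 3.11), while Phgdh, which opens serine synthesis, was lower (57.9 and 29.0 CPM) and so was Nars, an aminoacyl-tRNA synthetase (-0.74).

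Among 23 genes of the unfolded protein response of the endoplasmic reticulum, 15 had an interval below 0 and 2 above (Ern1 at 0.56 and Atf6 at 0.44, both sensors of the response), with a median of -0.52. Of all genes in oligodendrocyte-like nuclei, 27.9% lay below and 24.2% above. The chaperone gene Calr had 313 and 346 UMIs (log2 ratio -1.02) and the chaperone cofactor Sdf2l1 45 and 48 (-1.08). Genes under 5 kb had a median log2 ratio of -0.61 in these nuclei and genes over 50 kb 0.14. The part of gene length in the lists was not tested.

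The cell cycle list held 2 genes that were at least 2-fold higher among 10 measured, both cyclins. Ccnd3, encoding cyclin D3, had 145 and 1403 UMIs (39.3 and 169 CPM, log2 ratio 2.10, 1.86 to 2.36), and Ccne2, encoding cyclin E2, had 49 and 290 (1.40). E2f4 and Cdkn2d were the lowest of the list, at -0.83 and -0.53, with Cdkn2d within counting error. In the stress-activated kinase list the highest values were those of Maff (5 and 61 UMIs, 2.44) and Map3k1 (1.28), and the lowest those of Map3k11 (-1.42) and Dusp8 (-0.83). The mTORC1 list had Txnip (0.88) and Rragb (0.57) at its top and Mlst8 (-1.11) and Nprl2 (-1.04) at its bottom. In the list of other ATF, CREB and CEBP factors 6 of 14 genes had an interval above 0 and none below, against 24.2% and 27.9% of all genes. It was led by Cebpb and Cebpd (1.40), with Creb3 (-0.40) and Atf6b (-0.36) lowest and within counting error.

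**Figure D5:**
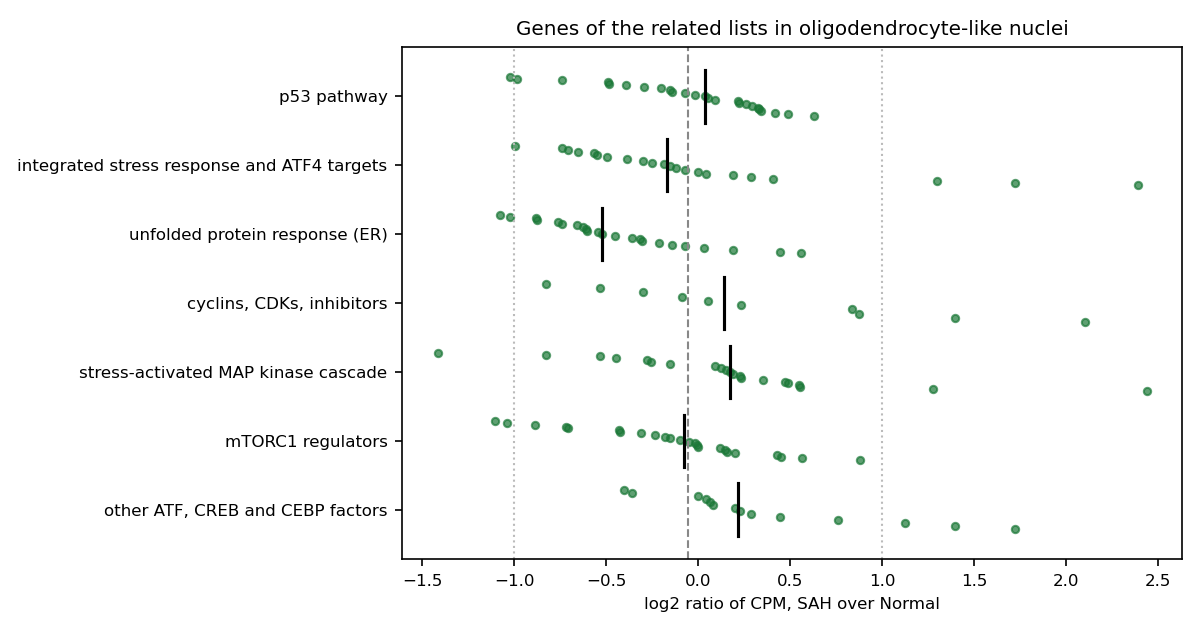
Log2 ratio of CPM, SAH over Normal (horizontal axis), of each gene with at least 50 UMIs in 7 related lists in oligodendrocyte-like nuclei; each point is a gene, black bars are list medians, the dashed line is the median of all genes and dotted lines mark 2-fold. The unfolded protein response list has a median of -0.52, below the -0.06 of all genes, and the p53 list has a median of 0.04.

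In microglia-like nuclei 23.0% of all genes had an interval above 0 and 20.1% below. The cell cycle list had a median of 0.54, with Ccne2 (15 and 69 UMIs, 1.51) and Cdk6, the cyclin D partner kinase (245 and 933 UMIs, log2 ratio 1.24, 1.04 to 1.45), at its top and Cdkn1b (-0.85) and Rb1 (-0.04) at its bottom. The p53 list had a median of -0.13 against 0.01 for all genes, with Zmat3 (0.90) and Polk (0.65) highest and Ccng2 (106 and 69 UMIs, -1.31) and Plk2 (-1.27) lowest. In the integrated stress response list Psat1, of serine synthesis, had 8 and 48 UMIs (1.90) and Cebpb 67 and 182 (0.75), while Nupr1 (-1.08) and Herpud1 (-0.84) were lowest. The unfolded protein response list again had more genes below 0 (10 of 20) than above (2, Atf6 at 0.89 and Ern1 at 0.73), with Hyou1 (-0.85) and Dnajb9 (-0.79) lowest. The remaining lists were led by Mapkapk2 (1.36) and Map2k3 (0.75), by Deptor, an mTOR inhibitor (32 and 153 UMIs, 1.57), and Rptor (0.57), and by Jdp2 (23 and 124 UMIs, 1.74) and Atf1 (0.94). Lowest there were Jund (-0.80) and Junb (-0.72), Akt1 (-0.71) and Tsc1 (-0.23), and Batf3 (-1.29) and Creb3 (-0.74). Of the genes named for this class, Zmat3, Map2k3, Rb1, Tsc1 and Creb3 had intervals that contained 0.

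In the neuron classes most list genes with an interval clear of 0 were lower in SAH, as were most of all genes with such an interval. It lay below 0 for 45.4% of all genes and above for 28.1% in excitatory neuron-like nuclei, and for 45.8% and 20.5% in inhibitory neuron-like nuclei. The unfolded protein response list had 21 of 24 genes below 0 in excitatory and 20 of 23 in inhibitory neuron-like nuclei, with medians of -0.76 and -0.77. The p53 list had medians of -0.31 and -0.34, the integrated stress response list -0.32 and -0.47, the cell cycle list -0.08 and -0.13, the stress-activated kinase list -0.26 and -0.32, the mTORC1 list -0.24 and -0.30, and the other ATF, CREB and CEBP factors 0.05 and -0.16.

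The pattern of Cdkn1a across 14 points, 7 classes in each library, was most like that of Gm44850 (Pearson r of log2(CPM + 1), 0.93), Hif3a, a hypoxia-inducible factor family gene (0.91), and Mrgpra9 (0.91). In oligodendrocyte-like nuclei Gm44850 stood at 2.71 and 108 CPM, Hif3a at 11.4 and 120 CPM and Mrgpra9 at 0.812 and 41.8 CPM in Normal and SAH. Mdm2, the member with most UMIs, was most like Srebf1 (0.99), Tm7sf3 (0.97) and Kif13a (0.97). The points share libraries and depth, and the values describe likeness only.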

How the data were processed

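The feature tables and UMI count matrices of 2 libraries were used as the authors deposited them: 10x Genomics 3' single-nucleus counts on mm10, Cell Ranger 6.1.2 per the file headers (5.0.0 in the submitters' processing notes), 12204 Normal and 18209 SAH barcodes with 114970719 and 172604358 UMIs. The barcode counts are not those the study states. Nuclei with under 300 or over 7000 genes, over 10% mitochondrial or 3% haemoglobin UMIs, or over 100000 UMIs were removed (71 and 29), then those with the highest Scrublet scores in Scanpy 1.11.5, 0.8% per 1000 nuclei (1178 and 2644).

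Marker lists gated the nuclei, with at least 3 marker UMIs of 2 kinds and a cut set after the distributions were seen: 50 marker UMIs per 10000 for oligodendrocytes and microglia, 30 for astrocytes and 3 for neurons. Nuclei passing several gates (132 and 166) were left out. Counts were summed per class and library and divided by the class total. Levels have exact Poisson, shares exact Clopper-Pearson and ratios exact conditional binomial intervals, and zeros were set at 3 UMIs for a bound. The ratio code was tested on simulated data. Gene lengths and positions came from GENCODE M21 (GRCm38). Members and lists were chosen with earlier results of these data known. Named genes were all members, the 2 highest and 2 lowest log2 ratios per list among genes with at least 50 UMIs in the glial classes, and the 3 genes most like Cdkn1a and Mdm2. The cortical layer and dentate marker lists were not used as classes. Alternatives changed filters, gates, clusters, scaling and depth. Clusters came from the Leiden method of igraph, on a neighbour graph from scikit-learn 1.9.0 and variable genes chosen in Scanpy.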

Additional observations from a re-analysis of the deposited data

Results flagged for a closer look

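Mdm2 stood out because its ratio had opposite signs, each with an interval clear of 0, in different classes. The log2 ratio was 0.19 in oligodendrocyte-like nuclei, -0.34 in excitatory neuron-like and -0.47 in inhibitory neuron-like nuclei. Thinned to 1000 UMIs per nucleus it was 0.06, -0.54 and -0.16, and centred on genes of similar length it was -0.17 and -0.20 in the neuron classes. The share of thinned nuclei with an Mdm2 UMI was 12.2% in Normal and 12.8% in SAH oligodendrocyte-like nuclei, and 3.80% and 3.34% in inhibitory neuron-like nuclei, pairs whose intervals overlap. In excitatory neuron-like nuclei the shares were 4.32% (3.73 to 4.99) in Normal and 3.08% (2.65 to 3.56) in SAH, whose intervals do not overlap. The difference between classes was not tested across animals, since there was 1 library per condition.

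Gadd45a appeared in the astrocyte-like nuclei, which were too few for a comparison: 11 UMIs in 17 SAH nuclei and 0 in 19 Normal nuclei. Of the 11 UMIs, 10 came from 1 nucleus and 2 nuclei held any.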

How the results depend on the processing

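No paired analysis was possible because each condition had 1 library. Of 439 recomputed member ratios, 413 stayed within the interval of the reported ratio, 26 moved outside it and 0 changed the sign of a ratio whose interval excluded 0. Thinning moved 5 of 9 ratios in excitatory and 4 of 8 in inhibitory neuron-like nuclei. It moved 1 of 8 in oligodendrocyte-like and 0 of 6 in microglia-like nuclei. Centring on genes of similar length moved 3 of 9 in each neuron class, 2 of 9 in oligodendrocyte-like and 0 of 7 in microglia-like nuclei. Of 80 recomputed shares of nuclei, 60 counted as moved. The count of members at least 2-fold higher in excitatory neuron-like nuclei, 1 as reported, was 0 with limits of 500 to 6000 genes and 5% mitochondrial UMIs, with doubled gate cuts, with nuclei thinned to 1000 UMIs, with a minimum of 200 UMIs, and, added after seeing the data, without nuclei of 3 or more Atf3 UMIs. The member counted there was Atf3, with 7 and 46 UMIs, close to the minimum of 50. A minimum of 200 drops it whatever its ratio, and without the high nuclei 4 and 19 UMIs were left. In such settings a count of 0 does not show a ratio under 2-fold. In microglia-like nuclei the count of 2 was 1 with doubled gate cuts and 0 with a minimum of 200 UMIs. Neither Ddit4 (11 and 40 UMIs) nor Trp53inp1 (28 and 118) reached that minimum, so this 0 was fixed by the filter. In inhibitory neuron-like nuclei the count of 0 was 1 when nuclei took the list with the highest marker share. The oligodendrocyte count of 3 was 2 under 7 settings (no doublet removal, the stricter limits, doubled gate cuts, mitochondrial and haemoglobin UMIs out of the total, thinning, a minimum of 200 UMIs, and, added later, without shared barcodes), each time without Gadd45b. Its log2 ratio of 1.00 lies at the threshold, and its 10 and 45 UMIs lie near the minimum of 50. The minimum of 200 therefore drops Gadd45b whatever its ratio. The oligodendrocyte count was 4 at 1.5-fold and with a minimum of 20 UMIs. Centring on genes of similar length moved the Ddit4 log2 ratio in oligodendrocyte-like nuclei from 1.49 to 2.19 and that of Atf4 from -0.26 to 0.42, and thinning moved Cdkn1a to 5.98. Of 42 recomputed list counts of 2-fold higher genes in the glial classes 13 moved by over 1.5 times, all with a minimum of 20 or 200 UMIs, and of 42 list medians 5 moved by over 0.1. With the minimum of 200 the unfolded protein response median in oligodendrocyte-like nuclei was -0.36, the cell cycle median 0.84 and the mTORC1 median 0.06, and in microglia-like nuclei the p53 median was 0.15. The cause was not tested. Depth limits the Gadd45 genes and Atf3 in glia, where several values rest on under 30 UMIs.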

Other observations

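Atf3 was concentrated in few SAH nuclei, a view chosen after its values were seen. Of 193 Atf3 UMIs in SAH, 86 lay in 15 of 15536 nuclei that held 3 or more each, against 1 such nucleus in Normal. Of these 15 nuclei 10 met no class, 2 were excitatory neuron-like, 2 oligodendrocyte-like and 1 microglia-like, and their median depth was 18425 UMIs. The nuclei without a class held 87 Atf3 UMIs in SAH and 1 in Normal, and 102 and 9 Cdkn1a UMIs.

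Since Atf3 chose these 15 nuclei, the values of other genes in them are given as they stand. Cdkn1a had 27 UMIs in 9 of them (113 CPM, against 6.06 CPM in all other SAH nuclei), Trp53inp1 24 UMIs in 7 (100 CPM, with 1538 UMIs in the 15521 other nuclei) and Mdm2 36 UMIs in 12 (151 CPM against 40.5 CPM). The other nuclei pool all classes. SAH oligodendrocyte-like nuclei alone stood at 71.5 CPM for Cdkn1a, 24.8 CPM for Trp53inp1 and 147 CPM for Mdm2. Ddit4 (8.37 against 6.71 CPM) rested on 2 UMIs in them and Atf4 (4.18 against 4.81 CPM) on 1, Gadd45b and Gadd45g had 6 and 5 UMIs, and Gadd45a had 0. The heat shock genes Hspa1a and Hspa1b had 55 and 62 UMIs (230.1 and 259 CPM, against 1.51 and 2.39 CPM). Hspb1, Jun and Fos had 24, 15 and 7 UMIs (100, 62.8 and 29.3 CPM, against 1.07, 4.22 and 1.24 CPM). The neuronal gene Snap25 had 120 UMIs in 11 of the 15 nuclei (502 against 818 CPM). Single nuclei contributed up to 7 of the Cdkn1a and 20 of the Hspa1a UMIs.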
